A study of Capra hircus with 40 samples.

Results

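The uterus of Jining gray goats, a Chinese breed known for early sexual maturity, was compared between month 4 and month 2 after birth by small RNA sequencing. The comparison used every uterus library of these ages, 5 at month 2 and 5 at month 4, which makes 10 of the 40 libraries of the series. The 40 libraries cover ovary and uterus at day 1 and at months 2, 4 and 6, with 5 separately numbered female goats per group. All goats came from the same farm and were kept alike, none carried a stated genotype or treatment, and RNA was taken from whole tissue. The labels do not say which layer of the uterus was taken, and give no sequencing date or lane. The deposited table lists 427 mature miRNAs. Of these, 331 had enough reads to be tested in the uterus, 96 did not (the highest of them averaged 1.68 CPM, which are counts scaled to the library total), and 16 had no read in any of the 10 libraries.

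MicroRNAs are short RNAs cut from hairpin precursors. Each hairpin can release a mature miRNA from its 5p or its 3p arm, usually with a dominant arm and a rarer passenger arm, and the mature strand guides the Argonaute complex to messenger RNAs, whose output it lowers. In the uterus, the miR-143/miR-145 cluster marks smooth muscle, the miR-200 family holds epithelial cells in their epithelial state by repressing ZEB1 and ZEB2, and the miR-29 family represses collagens and other matrix genes. After birth the uterus builds its glands and muscle layers and then comes under the cyclic control of ovarian steroids.

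The 10 libraries held 5502588 to 8149915 counts. Libraries resembled each other closely within and across the ages, with 3 exceptions. For 7 of the 10 libraries the mean Spearman correlation of log2 CPM with the other libraries of the same age, across the tested miRNAs, lay between 0.949 and 0.963. It was 0.889 for month 2 replicate 1, 0.933 for month 4 replicate 4 and 0.914 for month 4 replicate 5. With the libraries of the other age, the same 7 libraries had means about as high, between 0.954 and 0.963. Among 229 miRNAs with a mean of at least 10 CPM, 56 differed more than 4-fold from the median of the other libraries of its age in month 2 replicate 1, 21 in month 4 replicate 4 and 52 in month 4 replicate 5, against 2 to 4 in each of the other 7. Month 2 replicate 1 correlated at 0.965 with the day 1 uteri, above its value with its own age. All libraries were kept as labelled. Results are given with all 10 and, where this matters, without these 3, a choice made after seeing the data.

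The tissue label was checked against miR-202, a miRNA of gonads. In the 5 uteri of month 2 miR-202-5p reached at most 0.402 CPM, and at month 4 at most 0.954 CPM, against medians of 115 and 64.3 CPM in the ovaries of the same ages. On average no other miRNA was as abundant at either age as miR-143-3p, a miRNA of smooth muscle. It took 13.1% ± 6.58 of counts at month 2 and 13.6% ± 4.94 at month 4 (mean ± SD, n = 5 each). Next came miR-10b-5p, from a HOX gene cluster, with 12.7% ± 2.82 and 9.70% ± 5.27, then let-7a-5p with 7.40% ± 2.77 and 8.35% ± 3.66. The 10 most abundant miRNAs together held 66.1% ± 4.70 of counts at month 2 and 66.8% ± 2.72 at month 4, a difference of 0.680 percentage points (two-sided exact permutation p = 0.825). The number of detected miRNAs was 369 ± 10.2 at month 2 and 356 ± 12.6 at month 4 (exact permutation p = 0.103, and 0.206 after Benjamini-Hochberg adjustment over both measures). The smallest p that 5 against 5 libraries allow is 0.00794.

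No miRNA passed the test between month 2 and month 4. By edgeR's quasi-likelihood test, 0 of 331 miRNAs (0%) had an adjusted p under 0.05, and the lowest adjusted p was 0.122. At an unadjusted p under 0.05 there were 61 miRNAs (18.4%), 32 of them higher at month 4 (9.67%) and 29 lower (8.76%). Scaling to library totals alone gave 19 higher and 36 lower at that threshold and moved the median log2 change of all miRNAs from -0.06 to -0.20. DESeq2's Wald test called 11 of the 331 miRNAs (3.32%), 7 higher and 4 lower, and gave 32 of them no adjusted p. With only miRNAs of at least 10 CPM in 5 libraries, edgeR called 1 of 253 (0.395%), miR-195-3p. In CPM, all 5 month 4 libraries lay above all 5 month 2 libraries in 4 miRNAs (1.21%), and in 15 they all lay below (4.53%). The 4 above were miR-195-3p, miR-151-3p, miR-365-3p and the rare miR-215-5p. These orders leave out the TMM scaling factors of the fit, which ran from 0.801 to 1.15 over the 10 libraries. The orders can differ on the scale of the log2 changes, so the counts of 4 and 15 hold for CPM alone. Here and below, overlap of the levels of both ages was judged in CPM. For scale, month 2 against day 1 in the same fit gave 91 calls (27.5%), and month 6 against month 4 gave 0 (0%).

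**Figure D1:**
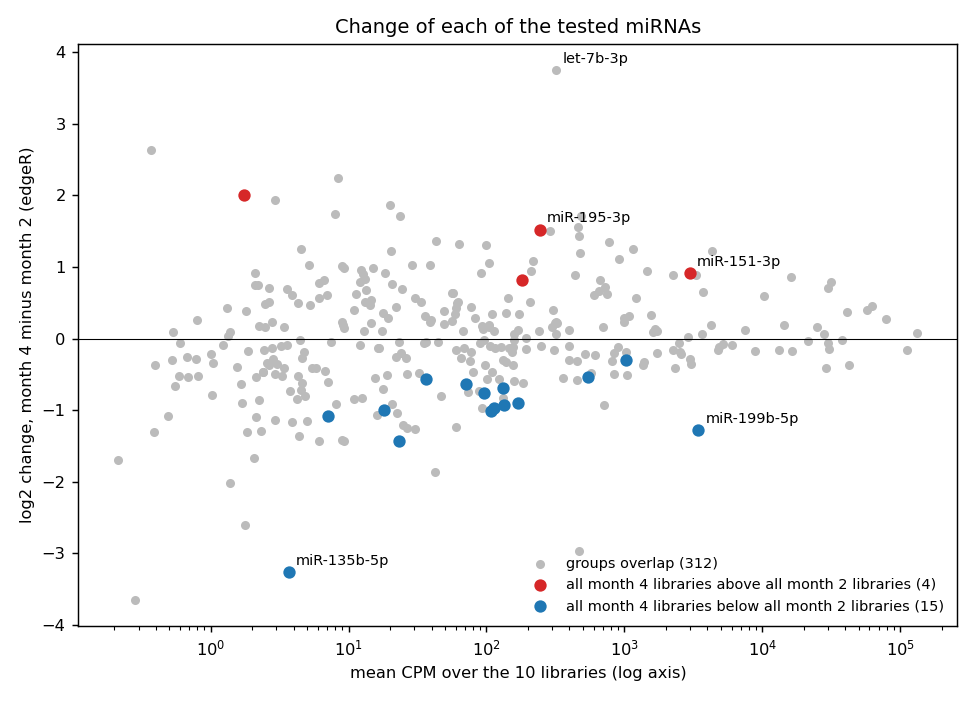
Log2 change from month 2 to month 4 (vertical axis) against mean CPM over the 10 libraries (horizontal log axis) for each of the 331 tested miRNAs. Red points mark the 4 miRNAs with all month 4 libraries above all month 2 libraries in CPM and blue points the 15 with all below. Most changes lie within 1 log2 unit of 0.

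Fewer miRNAs reached an unadjusted p under 0.05 without the 3 libraries that stood apart, a test with fewer samples. Without them 344 miRNAs were tested, 0 were called (0%) with a lowest adjusted p of 0.565, and 19 had an unadjusted p under 0.05 (5.52%), 10 higher (2.91%) and 9 lower (2.62%). The median SD of log2 CPM within an age was 0.67 at month 2 and 0.77 at month 4 over the 331 miRNAs, and 0.36 at both ages without these libraries. The median size of a log2 change was 0.47, below the spread within either age with all 10 libraries. The common biological coefficient of variation of the uterus fit was 0.598.

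miR-195-3p had the smallest p. It comes from a hairpin that is transcribed with miR-497. It is usually called the passenger arm, and the 5p arm belongs to the cell cycle repressing miR-15/16 family. Its levels at month 2 were 41.2, 119.9, 135, 253 and 133 CPM in replicates 1 to 5, and at month 4 they were 260.3, 348, 314, 372 and 454 CPM. Every month 4 library exceeded every month 2 library. The log2 change was 1.52 ± 0.36 (SE, edgeR unadjusted p = 0.000391, adjusted p = 0.122), and 1.20 ± 0.35 without the 3 libraries. Over the 19 alternative analyses its adjusted p ran from 0.00433 to 0.565. The 5p arm gave 0 to 2.38 CPM in the 10 libraries. Here the 3p arm was therefore the dominant one, with means of 243 CPM for 3p and 0.675 CPM for 5p. Whether the annotation or the assignment of reads accounts for this was not tested. The neighbouring miR-497-5p was higher by 0.52 ± 0.44, or by 0.98 ± 0.36 without the 3 libraries, where edgeR gave it an adjusted p of 0.645.

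Several other miRNAs were higher at month 4, by less without the 3 libraries than with all 10. miR-151-3p, from an intron of the focal adhesion kinase gene, stood at 1239, 2293, 2389, 2485 and 2459 CPM at month 2 and at 2945, 3146, 2736, 3292 and 6757 CPM at month 4. The ages did not overlap, yet the lowest month 2 value and the highest month 4 value both came from libraries that stood apart, and 4 libraries of each age spanned a narrow range. Its log2 change was 0.91 ± 0.26 (edgeR adjusted p = 0.122) and 0.56 ± 0.25 without the 3 libraries, while its 5p arm had a log2 change of 0.11 ± 0.34. miR-28-3p, from an intron of LPP, a focal adhesion gene, was higher by 0.89 ± 0.26 and its 5p arm by 0.19 ± 0.26. Its highest value, 7107 CPM against 4075 CPM in the next month 4 library, came from month 4 replicate 5, and its log2 change was 0.59 without that library and 0.57 ± 0.23 without the 3. miR-423-5p was at 773, 2073, 3275, 3839 and 3869 CPM at month 2 and at 2962, 4221, 4501, 7183 and 10253 CPM at month 4. Here the ages overlapped in 1 library of month 4, and the log2 change was 1.22 ± 0.36 (edgeR adjusted p = 0.122) against 0.51 without the 3 libraries. miR-365-3p was added after its values were seen. It was at 49.6, 142, 164, 194 and 162 CPM at month 2 and at 204, 198, 247, 225 and 236 CPM at month 4. No library overlapped, and the log2 change was 0.81 ± 0.32 (edgeR adjusted p = 0.206) and 0.65 ± 0.33 without the 3 libraries.

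**Figure D2:**
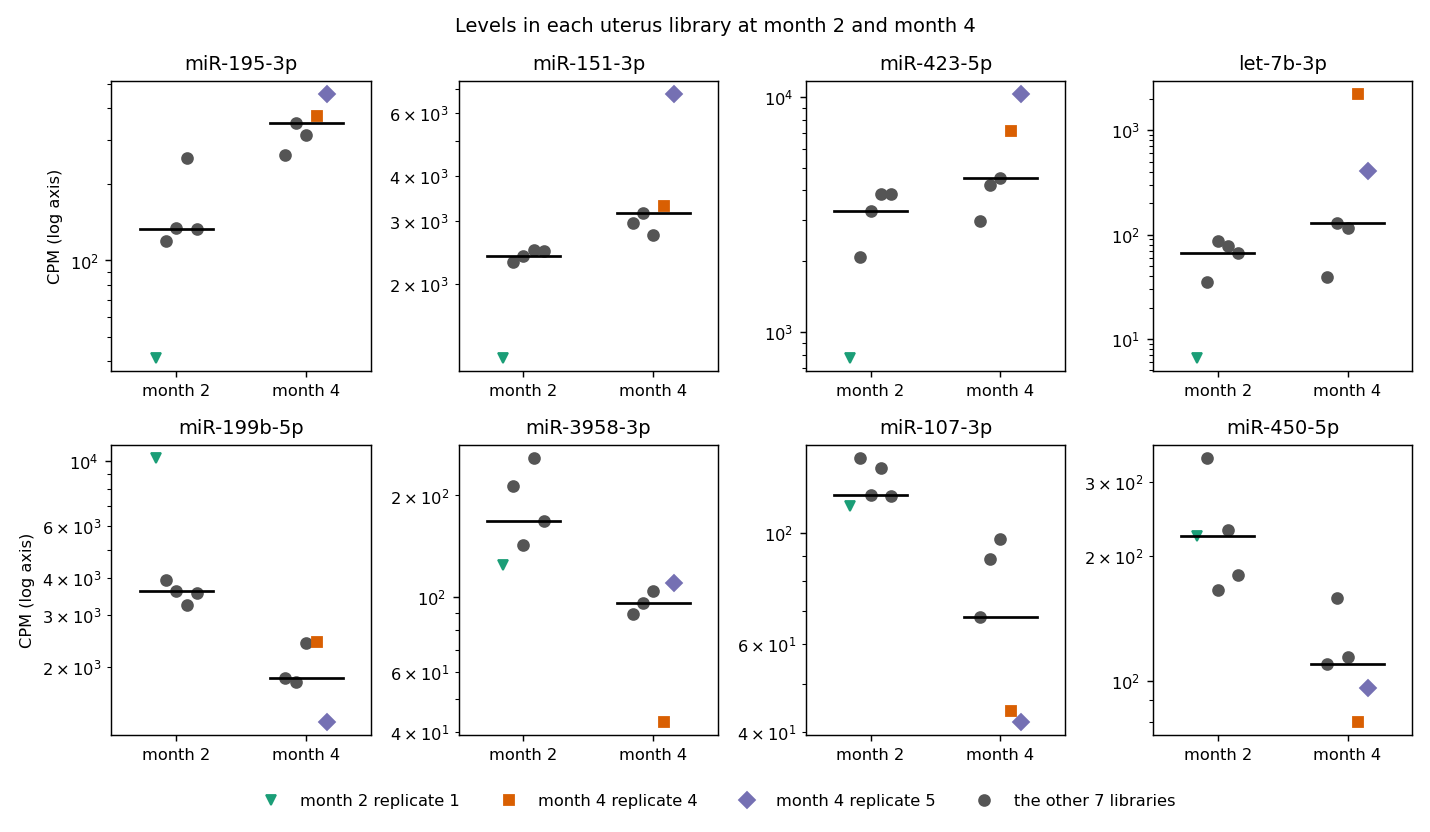
CPM of 8 miRNAs (log axes) in each uterus library at month 2 and month 4, with horizontal bars at the median of each age; coloured symbols mark month 2 replicate 1, month 4 replicate 4 and month 4 replicate 5. For miR-195-3p, miR-151-3p, miR-199b-5p, miR-3958-3p, miR-107-3p and miR-450-5p the ages do not overlap in CPM, which leave out the scaling factors of the fit. For let-7b-3p the value of 2209 CPM in month 4 replicate 4 stands far from the rest.

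In a further set the high values lay mainly in month 4 replicates 4 and 5. let-7b-3p, the passenger arm of let-7b, had the largest log2 change of the 331, 3.74 ± 1.08 (edgeR adjusted p = 0.122). It was at 6.57, 34.9, 86.1, 77.8 and 66.4 CPM at month 2 and at 39.6, 128, 115, 2209 and 411 CPM at month 4. Leaving out month 4 replicate 4 lowered its log2 change to 1.66, and leaving out all 3 libraries lowered it to 0.72. miR-197-3p was at 301, 355, 396, 1539 and 991 CPM at month 4 and miR-504, from an intron of FGF13, at 325, 294, 395, 1303 and 980.3 CPM. Their log2 changes were 1.71 ± 0.61 and 1.55 ± 0.58 with all libraries, and 0.44 and 0.40 without the 3. miR-30f-5p had a log2 change of 1.44 ± 0.57 with all libraries and of -0.0028 without the 3. miR-193b-5p (1.86 ± 0.54), miR-671-3p (1.72 ± 0.53), miR-125a-3p (1.33 ± 0.47) and miR-378-3p (1.12 ± 0.35) completed the 10 higher miRNAs of at least 10 CPM with the smallest p. Of these, miR-193b-5p and miR-378-3p kept log2 changes of 1.00 and 0.85 without the 3 libraries, whereas miR-671-3p and miR-125a-3p had 0.33 and 0.31.

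Of the 15 miRNAs with all month 4 libraries below month 2, miR-199b-5p was the most abundant. It is a miRNA of fibroblasts and other mesenchymal cells. Its levels at month 2 were 10217, 3952, 3623, 3239.8 and 3562 CPM, and at month 4 they were 1840.3, 1783, 2413, 2441 and 1305 CPM. No library overlapped in CPM, which leave out the scaling factors of the fit. The log2 change, which includes them, was -1.28 ± 0.38 (edgeR adjusted p = 0.122), or -0.59 ± 0.27 without the 3 libraries. The paralog miR-199a-5p, which differs little in sequence, had a log2 change of -0.36 ± 0.52 with overlapping ages. How reads matching both were divided is not given in the sources used here, so the split between them is uncertain.

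miR-135b-5p and miR-454-3p were lower and rare. miR-135b-5p was at 24.4, 2.50, 2.45, 2.21 and 1.79 CPM at month 2 and at 0.281, 0.896, 0.965, 0.954 and 0.545 CPM at month 4, without overlap. The log2 change was -3.26 ± 0.89 (edgeR adjusted p = 0.122), and -1.47 without month 2 replicate 1. miR-454-3p, a member of the miR-130/miR-301 family, had a log2 change of -1.42 ± 0.38 (edgeR adjusted p = 0.122) and of -1.17 ± 0.41 without the 3 libraries. miR-107-3p, from an intron of a pantothenate kinase gene, was at 113, 141, 119, 135 and 118 CPM at month 2 and at 68.0, 88.9, 97.1, 44.2 and 42.0 CPM at month 4. The ages did not overlap, and the log2 change was -0.76 ± 0.29 (edgeR adjusted p = 0.204). miR-421-3p was lower by a log2 change of -0.99 ± 0.35 and kept -0.96 ± 0.41 without the 3 libraries. miR-383 was at 20.6 to 116 CPM at month 2 and at 4.61 to 38.6 CPM at month 4, a log2 change of -1.87 ± 0.72. The X-linked miR-362-5p had a log2 change of -0.80 ± 0.34, and of -0.25 without the 3 libraries. Among the 15 with all month 4 libraries below were also miR-98-5p of the let-7 family (-0.53 ± 0.28), miR-342-3p (-0.29 ± 0.28) and the epithelial miR-182 (-1.01 ± 0.55).

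The imprinted DLK1-DIO3 locus holds the largest miRNA cluster of placental mammals, expressed from the maternal chromosome. Of its 64 mature miRNAs in the table, 48 were tested and 16 were too rare. Of the 48, 33 were lower and 15 higher at month 4, with a median log2 change of -0.47 against -0.06 over all 331. None passed the adjusted test. At an unadjusted p under 0.05, 11 of the 48 were lower and 0 higher, and in 5 all month 4 libraries lay below. Over all 331 miRNAs the same counts were 29 lower (8.76%), 32 higher (9.67%) and 15 with all below (4.53%). Without the 3 libraries, 44 of 50 were lower with a median of -0.44, while the median of all 344 miRNAs was 0.11. In that setting 2 of the 50 had an unadjusted p under 0.05, where 19 of all 344 did (5.52%). All month 4 libraries lay below month 2 in CPM for 17 of the 50, and for 46 of all 344 (13.4%).

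By the order of miRNA genes in RefSeq (assembly ARS1.2, genes within 10 kb joined), the locus falls into stretches. The stretch from miR-379 to miR-656 gave 42 tested mature miRNAs from 34 hairpins, with miR-3958 and miR-3959 that the list above lacks, 33 lower and 9 higher, with a median of -0.57. At an unadjusted p under 0.05, 13 of the 42 were lower (8.76% of all 331), and 6 had all month 4 libraries below month 2 (4.53% of all 331). These 6 were miR-3958-3p, miR-382-3p, miR-410-3p, miR-495-3p, miR-494 and miR-655. miR-3958-3p was at 125, 214, 143, 258 and 169 CPM at month 2 and at 89.4, 96.3, 104, 42.8 and 110.3 CPM at month 4. Its log2 change was -0.92 ± 0.30 (edgeR adjusted p = 0.163), and -0.77 ± 0.34 without the 3 libraries. miR-410-3p was at 8.04, 12.9, 9.82, 12.0 and 7.04 CPM at month 2 and at 3.65, 5.12, 3.86, 5.09 and 3.27 CPM at month 4. Month 4 values were close together and all below in CPM, before the scaling factors of the fit. The log2 change was -1.08 ± 0.36, and -1.07 ± 0.40 without the 3 libraries. The other 4 had log2 changes of -0.96 ± 0.36 for miR-382-3p, -0.64 ± 0.24 for miR-495-3p, -0.69 ± 0.32 for miR-494 and -0.57 ± 0.27 for miR-655. miR-369-3p of the same stretch had -1.23 ± 0.48. It was -0.69 without month 2 replicate 1 and -0.37 ± 0.37 without the 3 libraries, and its lowest value, 12.0 CPM, came from month 4 replicate 5. With the 3 libraries left out, 37 of the 42 were lower, with a median of -0.44. In that setting 2 of the 42 had an unadjusted p under 0.05, where 5.52% of all 344 did. Leaving out any single library of the 3 left 30 to 37 of the 42 lower.

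The stretch from miR-493 to miR-136, which also holds miR-127, miR-432, miR-433 and miR-665, had more members higher than lower with all libraries. Of 9 tested miRNAs 6 were higher and 3 lower, with a median of 0.19. miR-127-3p, its most abundant member, which is antisense to the imprinted RTL1 gene, was at 4903, 15171, 13029.7, 21856 and 15443 CPM at month 2 and at 8118, 18815, 11300.1, 10404 and 25021 CPM at month 4. The ages overlapped, and the log2 change was 0.19 ± 0.30. This direction rested on month 4 replicate 5, the highest library. Without it 7 of the 9 were lower with a median of -0.54, and without all 3 libraries 8 of 9 were lower with a median of -0.38. The difference between the stretches was not tested.

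**Figure D3:**
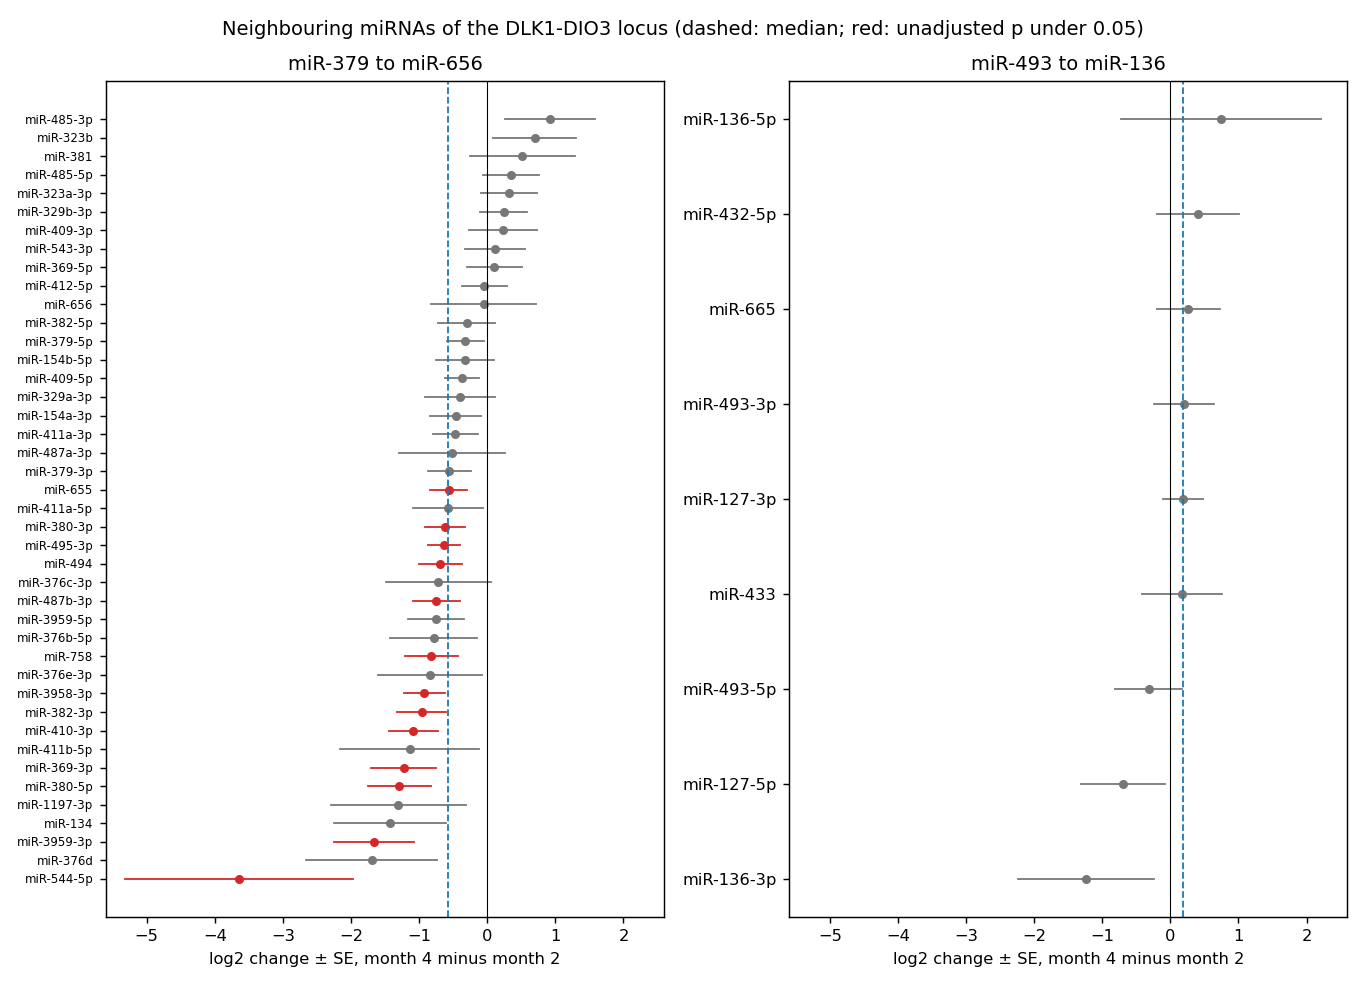
Log2 change ± SE from month 2 to month 4 of the tested miRNAs in the stretch from miR-379 to miR-656 (left, 42 miRNAs) and in the stretch from miR-493 to miR-136 (right, 9 miRNAs); dashed lines are medians and red marks an unadjusted p under 0.05. On the left 33 of 42 lie below 0 and all red points are below 0, and on the right no point is red.

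On the X chromosome the stretch from miR-450 to miR-424, which also holds miR-542, had all 6 tested miRNAs lower at month 4, with a median of -0.68. miR-450-5p was at 223, 343, 166, 230.3 and 179.7 CPM at month 2 and at 110.1, 158, 114, 79.97 and 96.5 CPM at month 4. In CPM, without the scaling factors of the fit, the ages did not overlap. The log2 change was -0.90 ± 0.35 (edgeR adjusted p = 0.204) and -0.63 without the 3 libraries. The stretch as a whole did not keep its direction: without the 3 libraries, 3 of the 6 were lower and the median was -0.02. Of the 30 groups of neighbouring miRNA genes, a second X-linked group, with miR-362, miR-500, miR-502b and miR-660, had 5 of 6 lower with a median of -0.48.

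The miR-29 family gave other values with and without the 3 libraries. All 5 tested members were higher at month 4, with a median log2 change of 0.54, and none had an unadjusted p under 0.05. miR-29a-3p was at 799, 117, 108, 285 and 211 CPM at month 2 and at 842, 525, 599, 1199 and 110.5 CPM at month 4. The 2 values out of order were month 2 replicate 1, which was high, and month 4 replicate 5, which was low, and the log2 change was 1.19 ± 0.72 (edgeR adjusted p = 0.358). With the 3 libraries left out it was 2.19 ± 0.64, the smallest unadjusted p of the 344 (edgeR unadjusted p = 0.00324, adjusted p = 0.565). miR-29b-3p, at 31.4, 2.90, 3.68, 5.21 and 2.69 CPM at month 2 and 21.9, 8.71, 8.27, 27.0 and 2.00 CPM at month 4, went from 0.62 ± 0.87 to 2.20 ± 0.77. In that setting 4 of the 5 had an unadjusted p under 0.05 and were higher, where 10 of all 344 were (2.91%), and 4 had all month 4 libraries above month 2, where 12 of all 344 did (3.49%).

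The let-7 family, which promotes maturation of many tissues and is held down by LIN28, had most of its larger changes in 3p arms. Of 16 tested members 10 were higher and 6 lower, with a median of 0.21. The 4 with an unadjusted p under 0.05, against 9.67% of all 331 higher at that threshold, were all 3p arms, of let-7a, let-7b, let-7d and let-7f. Without month 4 replicate 4, which had the highest value of each, no member had an unadjusted p under 0.05, and without month 4 replicate 5 the median was -0.02. The abundant 5p arms had log2 changes that were small against their errors: 0.28 ± 0.42 for let-7a-5p, 0.37 ± 0.45 for let-7b-5p, -0.02 ± 0.43 for let-7c-5p, -0.37 ± 0.29 for let-7f-5p and -0.14 ± 0.28 for let-7g-5p. Their sequences differ by few bases, so reads may be split between members.

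The miR-125/miR-99/miR-100 group, whose genes lie beside let-7 genes, had 7 of 9 higher with a median of 0.56, and 1 with an unadjusted p under 0.05. miR-125a-5p was at 6359, 18481, 29200.1, 36583 and 36209 CPM at month 2 and at 32292, 30945, 46256, 53281 and 26078 CPM at month 4, with overlapping ages and a log2 change of 0.79 ± 0.45. Without the 3 libraries all 9 were higher, with a median of 0.23 and none at an unadjusted p under 0.05. In the miR-30 family 8 of 11 were higher with a median of 0.17, which scaling to library totals lowered to 0.02. The miR-17-92 cluster and its paralogs, which promote proliferation, had 6 of 16 higher and 10 lower with a median of -0.19, and 11 of 17 higher with a median of 0.30 without the 3 libraries. In the group of miR-15, miR-16, miR-195 and miR-497 miR-195-3p alone of 8 had an unadjusted p under 0.05, and 6 were lower, with a median of -0.21. The miR-181 family had 4 of 4 lower with a median of -0.24.

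**Figure D4:**
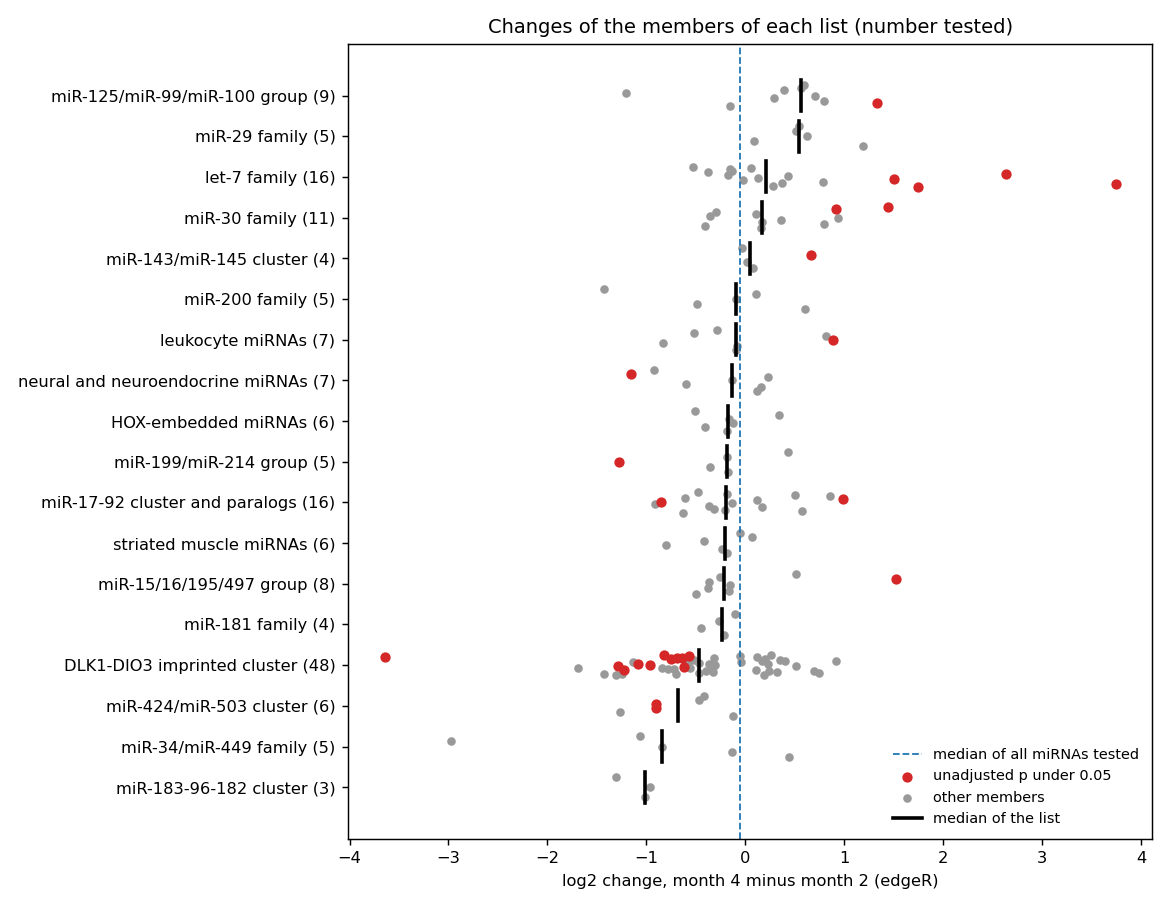
Log2 change from month 2 to month 4 of each tested member of the lists of miRNAs with at least 3 tested members (points, with the number tested after each name), with black bars at the list median, a dashed line at the median of all 331 miRNAs and red points at an unadjusted p under 0.05. The DLK1-DIO3, miR-424/miR-503, miR-34/miR-449 and miR-183-96-182 lists have the lowest medians of those drawn, and the let-7 points at the right are 3p arms.

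Smooth muscle miRNAs were at like levels at both ages. The summed miR-143/miR-145 cluster ran from 105099 to 261885 CPM at month 2 and from 108270.4 to 219860 CPM at month 4, and miR-143-3p had a log2 change of 0.08 ± 0.34. miR-145-5p had a log2 change of -0.03 ± 0.27. The passenger arm miR-145-3p was at 311, 436, 688, 738 and 543 CPM at month 2 and at 448, 717, 800.4, 1123 and 763 CPM at month 4, with overlap and a log2 change of 0.67 ± 0.30 (edgeR adjusted p = 0.259). In whole tissue, fewer cells of a type and less RNA per cell cannot be told apart.

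Among epithelial miRNAs, the summed miR-200 family varied more between libraries than between ages. The summed miR-183-96-182 cluster also varied between libraries but did not overlap between ages. The summed miR-200 family ran from 5290.2 to 12006 CPM at month 2, and from 6056 to 12463 CPM in 4 libraries of month 4, but was 963 CPM in month 4 replicate 5. miR-200b had a log2 change of -0.09 ± 0.60. miR-429 was the only member without overlap in CPM, before the scaling factors of the fit. It was at 36.5, 42.6, 40.1, 24.3 and 30.1 CPM at month 2 and at 10.1, 24.3, 14.5, 8.43 and 1.09 CPM at month 4. Its highest month 4 value nearly met the lowest month 2 value, and the log2 change was -1.43 ± 0.69 (edgeR adjusted p = 0.259) and -0.86 without the 3 libraries. The summed miR-183-96-182 cluster, a transcript of epithelial and sensory cells, was at 335, 237, 286, 297 and 234 CPM at month 2 and at 138, 78.7, 219, 149.9 and 54.9 CPM at month 4. No library overlapped. All 3 members were lower, miR-182 by a log2 change of -1.01 ± 0.55, miR-183 by -0.97 ± 0.60 and miR-96 by -1.31 ± 0.82, and none had an unadjusted p under 0.05. The SDs of their log2 CPM within month 4 were 1.10, 0.72 and 1.42. Without the 3 libraries the median of the cluster was -0.71.

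The ciliated cell miRNAs of the miR-34/miR-449 family spanned the widest range. Their sum was 4066, 657, 170.2, 76.8 and 55.4 CPM at month 2 and 144, 663, 345, 177 and 20.0 CPM at month 4. Levels overlapped over nearly the whole range, and miR-34c-5p alone was at 3652 CPM in month 2 replicate 1. Its log2 change of -2.97 ± 1.71 rested on that library and was -0.03 without it, and the list median of -0.84 was 0.52 without the 3 libraries.

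Of 7 leukocyte miRNAs tested, 2 were higher and 5 lower at month 4, with a median log2 change of -0.09 (0.14 without month 2 replicate 1), and none passed the adjusted test. miR-150, the miRNA of mature lymphocytes, was at 80.2, 269.6, 228, 485 and 604 CPM at month 2 and at 455, 564, 674, 440.2 and 606 CPM at month 4. Month 4 values lay within a narrow range that the 2 highest month 2 libraries reached, and the log2 change was 0.89 ± 0.40 (edgeR adjusted p = 0.259) and 0.78 ± 0.41 without the 3 libraries. miR-155-5p, of activated immune cells, had a log2 change of 0.82 ± 0.44. The 5 lower ranged from -0.08 for miR-146b-3p to -0.83 for miR-146b-5p. Among fibroblast miRNAs, 4 of 5 of the miR-199/miR-214 group were lower, with a median of -0.18, and 2 of 5 were without the 3 libraries. Endothelial miR-126-3p had a log2 change of -0.15 ± 0.30. The red blood cell miRNA miR-451-5p was at 12.0 to 59.4 CPM at month 2 and at 13.4 to 48.5 CPM in 4 libraries of month 4, but at 172 CPM in month 4 replicate 5. Its part in the values of that library was not tested. Of the striated muscle miRNAs 5 of 6 were lower, with a median of -0.21 that became 0.38 without the 3 libraries, and liver miR-122 did not exceed 13.1 CPM in any library. Among neural miRNAs, miR-9-5p was at 629 to 1393 CPM at month 2 and 243 to 682 CPM at month 4, a log2 change of -0.92 ± 0.51 with overlap in 1 library of month 4.

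**Figure D5:**
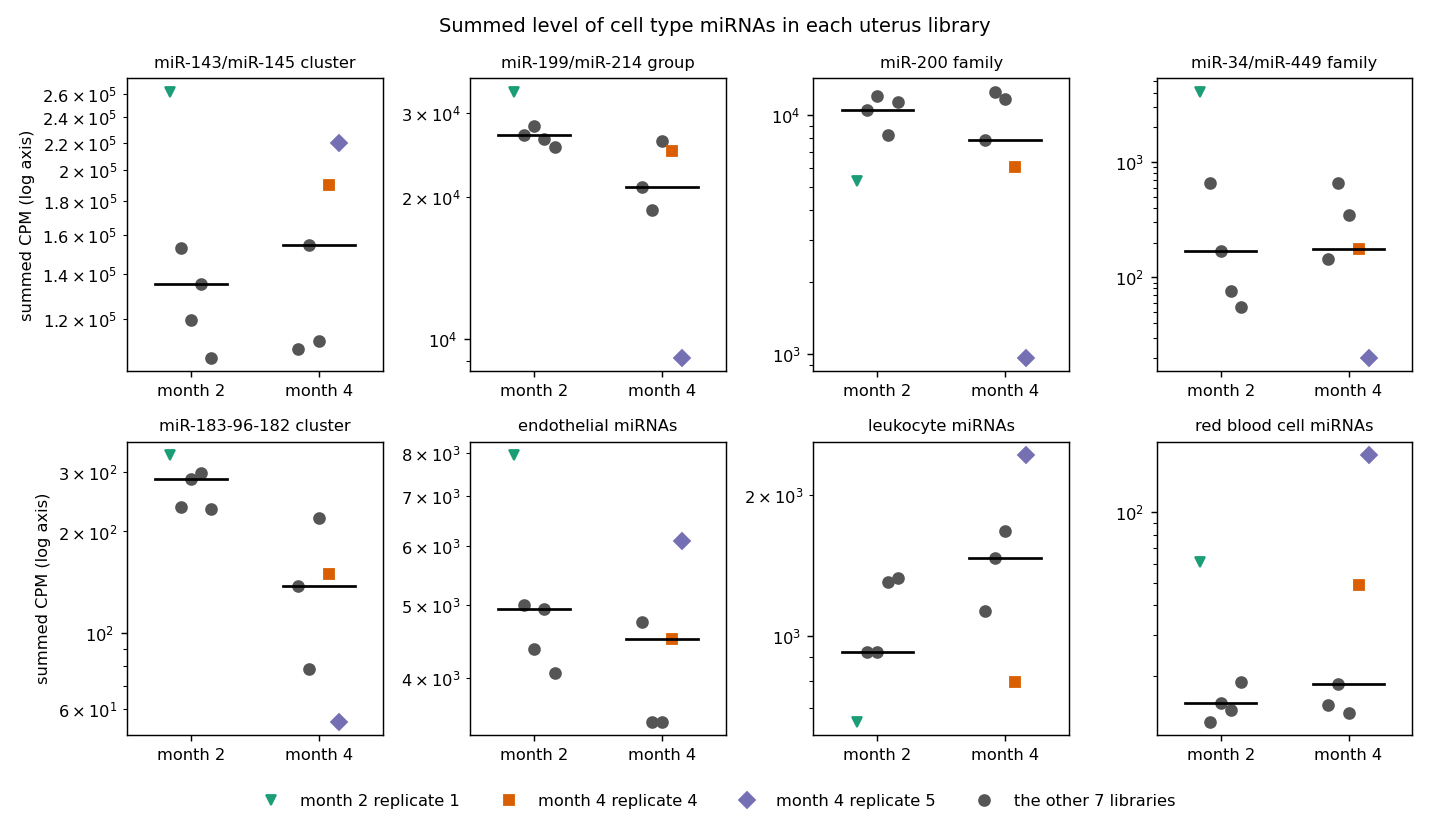
Summed CPM (log axes) of 8 lists of cell type miRNAs in each uterus library at month 2 and month 4, with horizontal bars at the median of each age and coloured symbols for the 3 libraries that stood apart. The miR-183-96-182 sums do not overlap between ages. Month 4 replicate 5 is the lowest library in the miR-200, miR-183-96-182, miR-199/miR-214 and miR-34/miR-449 panels. It is the highest in the leukocyte and red blood cell panels.

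Both arms were tested for 102 hairpins. The arms had log2 changes of the same sign in 67 and of opposite signs in 35, with a median absolute difference of 0.56 between their log2 changes. The hairpins with the largest differences among those with both arms at 10 CPM or more were let-7b (3.37 for 3p minus 5p), miR-34c (2.13), miR-99a (-1.61), miR-708 (1.38) and let-7d (1.37). Only for miR-374a did the 3p to 5p ratio not overlap between ages, with a log2 ratio of -0.53 ± 0.15 at month 2 and 0.19 ± 0.52 at month 4 (mean ± SD over 5 libraries each).

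The leading miRNAs were also followed over the 4 ages. The median of miR-195-3p was 40.2 CPM at day 1, 133 at month 2, 348 at month 4 and 317 at month 6, and that of miR-150 was 36.8, 269.6, 564 and 489.8 CPM. Both had risen from day 1 to month 2 (log2 changes of 1.88 and 2.94, edgeR adjusted p = 0.00251 and 0.000401). miR-199b-5p had medians of 12754, 3623, 1840.3 and 2449 CPM and had fallen in the first step (-1.23, adjusted p = 0.0223). Others had a higher median again at month 6. The median of miR-429 was 151, 36.5, 10.1 and 80.04 CPM, that of miR-421-3p 18.2, 22.8, 10.6 and 24.5 CPM, and that of miR-107-3p 153, 119, 68.0 and 119.6 CPM, although none of these passed the test from month 4 to month 6. miR-29a-3p stood at 209.7 and 211 CPM at day 1 and month 2 and at 599 and 714 CPM at months 4 and 6. These steps share the month 2 or the month 4 libraries.

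The ovary gives the same step of age in another tissue, with no library shared. Goats are numbered alike in both tissues at each age, and it is unknown if equal numbers mean the same animal. The fit treated all libraries as independent, so the errors and p-values of this contrast make no allowance for goats that gave both tissues. The change in uterus minus the change in ovary was tested for 350 miRNAs, of which 0 passed (0%), with a lowest adjusted p of 0.149, and 57 had an unadjusted p under 0.05 (16.3%). miR-195-3p differed most by p. It was at 137 ± 75.8 and 349.8 ± 71.8 CPM in the uteri of months 2 and 4 and at 483 ± 53.4 and 407 ± 126 CPM in the ovaries (mean ± SD, n = 5). Its difference of changes was 1.99 ± 0.54 on the log2 scale (edgeR adjusted p = 0.149), from 1.62 in uterus and -0.37 in ovary. miR-99b-3p (1.60 ± 0.46), miR-148b-3p (1.47 ± 0.43), miR-423-3p (1.75 ± 0.52) and miR-504 (2.80 ± 0.87) followed in the same direction. For miR-148b-3p the larger change was in the ovary, with a log2 change of -1.63 there and -0.16 in uterus. In the other direction miR-429 led with -4.70 ± 1.69, from -1.42 in uterus and 3.29 in ovary, where its mean was 2.47 CPM at month 2 and 30.4 ± 46.6 CPM at month 4. miR-126-5p (-1.45 ± 0.57), miR-135a (-3.17 ± 1.25), miR-10a-3p (-2.38 ± 0.98) and miR-495-3p of the DLK1-DIO3 locus (-1.39 ± 0.58) came next. Across the 350 miRNAs, which are not independent, the changes in uterus and ovary had a Pearson correlation of -0.06, and 183 had the same sign.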

How the data were processed

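Per the labels, total RNA was extracted with TRIzol from ovary and uterus of separately numbered goats and sequenced as small RNA. The authors deposited raw read counts per mature miRNA in each library, whole numbers without normalization, from 5502588 to 8149915 per uterus library of months 2 and 4. Per the submitters' processing notes, cutadapt 1.16, Bowtie 1.0.1 and RSEM 1.3.0 were used, with no role given; genome build, miRNA annotation and the treatment of reads matching several miRNAs are not given in the sources used here.

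All 20 uterus libraries were fitted together in R 4.3.3 with edgeR 4.0.16 (filterByExpr, TMM, glmQLFit and glmQLFTest), with month 4 minus month 2 as the contrast and Benjamini-Hochberg adjustment over all miRNAs tested; a call is an adjusted p under 0.05. The standard error is the absolute log2 change divided by the square root of F. CPM values are counts scaled to the library total, and log2 changes include the TMM factors. The uterus minus ovary contrast came from a fit of all 40 libraries. Library measures were compared by two-sided exact permutation tests in R. DESeq2 1.42.0, other scalings and filters, a replicate block and left-out libraries were alternatives. The scripts were tested on simulated counts.

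miRNAs were named by rule: the 10 with the smallest p in each direction among those of at least 10 CPM on average, any called by an alternative that keeps all libraries, members of the lists, the 10 most abundant, 5 hairpins by arm difference, 5 per direction for the ovary contrast and those leading in libraries apart. miRNAs whose ages did not overlap, and miR-30f-5p, were added after their values were seen. The comparison, lists and named miRNAs were chosen with earlier results of these data known. No sequences are printed, and gene order came from RefSeq, which matched 327 of 331 tested miRNAs. Because individuals are the replicates, p-values cover spread between goats and library preparation together.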

Additional observations from a re-analysis of the deposited data

Results flagged for a closer look

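In 126 groups of 5 libraries (61 named miRNAs and 2 library measures at each age), 16 held a highest or lowest library whose gap to its nearest neighbour exceeded 0.71 of the group's range. Chance flags about 1 in 20 groups of independent, normally distributed values, which CPM of chosen miRNAs are not. All 16 fell in the 3 libraries that stood apart: 9 in month 2 replicate 1, 2 in month 4 replicate 4 and 5 in month 4 replicate 5. These libraries and some of the named miRNAs were picked from the same values, so this is not separate evidence.

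In month 2 replicate 1 the flagged values were 24.4 CPM of miR-135b-5p against 2.50 in the next library, 10217 CPM of miR-199b-5p against 3952, 245780.1 CPM of miR-143-3p against 126254, 799 CPM of miR-29a-3p against 285, 31.4 CPM of miR-29b-3p against 5.21, 3652 CPM of miR-34c-5p against 390.3 and 59.4 CPM of miR-451-5p against 18.8. Low values in this library were 1239 CPM of miR-151-3p against 2293 and 65.1 CPM of miR-504 against 263. Month 4 replicate 4 had 2209 CPM of let-7b-3p against 411 in the next library and 2.38 CPM of miR-195-5p against 0.281. In month 4 replicate 5 the high values were 6757 CPM of miR-151-3p against 3292, 7107 CPM of miR-28-3p against 4075, 224 CPM of miR-125a-3p against 76.5 and 172 CPM of miR-451-5p against 48.5, and the low value was 12.0 CPM of miR-369-3p against 34.9.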

How the results depend on the processing

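Against 0 calls in the main analysis, the count of called miRNAs was 0 with DESeq2 size factors, library totals, no filter, only the 10 libraries compared, and without 2 or 3 libraries apart; it was 1 with the stricter filter, 11 with DESeq2's Wald test and 0 to 1 leaving out each library in turn (1, miR-195-3p, without month 2 replicate 4). The 61 miRNAs at an unadjusted p under 0.05 were 37 without the 2 libraries doubted in an earlier analysis of these data (month 2 replicate 1 and month 4 replicate 4), 19 without the 3, and 43 to 72 leaving out each library. The replicate number as a block gave 3 calls, all higher (miR-193b-5p, miR-195-3p, miR-423-5p); deviations of same-numbered libraries correlated at 0.487, 0.465, 0.110, -0.064 and 0.402, 3 of 5 month 2 libraries correlated best with their own number, and the labels tie no number across ages, so the numbers were not taken as pairs. The contrast with ovary gave 0 calls in every alternative run. Leaving out each library moved the difference in detected miRNAs from -13.6 to between -16.45 and -8.15 (exact permutation p = 0.0476 without month 2 replicate 4) and that in the share of the 10 most abundant miRNAs to between -0.261 and 2.69 points.

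These log2 changes reversed sign. let-7c-5p was 0.14 with DESeq2 size factors and with the Wald test, 0.19 without filter, 0.21 with the stricter filter, 0.051 with 10 libraries and 0.18 without 2. let-7g-5p was 0.014 without filter, 0.040 without 2 and 0.24 without 3. miR-151-5p was -0.079 with library totals, miR-145-5p 0.028 without filter, miR-143-3p -0.059 with 10 libraries and miR-34c-5p 0.038 without 2 and 0.45 without 3. Without 3 libraries let-7f-5p was 0.065, miR-10b-5p 0.18, miR-127-3p -0.13, miR-199a-5p 0.085, miR-200b 0.24 and miR-30f-5p -0.0028. Leaving out each library gave ranges of -0.23 to 0.20 for miR-151-5p, -2.31 to 0.67 for miR-195-5p, -0.78 to 0.16 for miR-199a-5p, -0.092 to 0.59 for miR-143-3p, -0.38 to 0.19 for let-7c-5p, -0.40 to 0.070 for miR-200b, -0.22 to 0.082 for miR-145-5p, -0.30 to 0.0031 for let-7g-5p and -0.11 to 0.44 for miR-127-3p. The cause was not tested. The correction for GC content and the mean GC of each library were not run, since no mature sequences were used here. The 96 miRNAs not tested averaged at most 1.68 CPM, too few reads to compare.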
